A study of Mus musculus with 4 samples.

Results

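The genes of DNA replication and mitosis were read in single-cell RNA-seq of tumor-infiltrating CD8+ cells (TI-CD8+). The members were 40 genes chosen by symbol, of 31053 genes in each count table, and each was found in all 4 libraries. They were split into an S list of 13 genes, which build the replication machinery and supply nucleotides (the Mcm genes, Pcna, Rrm1, Rrm2, Tyms, Tk1, Ccne1 and Ccne2), and a G2M list of 26 genes, which drive and carry out mitosis. Stmn1, a tubulin-binding gene, stood in neither list. The cells were sorted for CD8 and CD3 from subcutaneous Myc-CaP tumors, a line of mouse prostate cancer that carries a Myc transgene, in male FVB mice whose age was not given in the sources used here. Mice were left untreated (Ctrl), or were injected weekly for 3 to 4 weeks with 10 mg/kg of anti-PD-L1 antibody (aPD-L1), which blocks a checkpoint ligand of T cells, with 6 mg/kg of the platinum drug oxaliplatin (Oxali), or with both agents (Combo). Each group was 1 library with no replicate, and the number of mice behind it is not given in the sources used here, so the differences below describe these libraries and carry no test.

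A cell that is to divide first licenses its replication origins by loading the ring of Mcm2 to Mcm7, copies its DNA behind the sliding clamp Pcna during S phase, then passes G2 and enters mitosis when cyclin A and B activate Cdk1. Factors of the E2F family switch on the S genes, while many G2 and M genes are held silent in resting cells by the DREAM complex, which binds a short promoter element called the cell-cycle homology region, and are switched on late by B-Myb and Foxm1. A naive CD8 T cell rests outside the cycle. After it meets antigen it divides many times, and in tumors dividing CD8 cells often carry checkpoint receptors as well.

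The promoters are shown first, because the S and G2M lists differed in the letters they hold. Windows of 300 bases, from 250 before to 50 after the annotated start, were taken from RefSeq on GRCm38.p6 for the 33 of 40 members that matched, 11 of the S list and 22 of the G2M list. Mcm4, Ccne2, Ccna2, Tpx2, Aurkb, Kif20a and Stmn1 had no entry. The motifs searched on both strands were TTTGAA (cell-cycle homology region), CCAAT (the box bound by NF-Y) and TTTCCCGC or TTTGGCGC (E2F), and none of them contains another. TTTGAA stood in 16 of 22 G2M members and in 1 of 11 S members, Mcm2, against 17.9% of all 32851 windows and 20.2% of genes. CCAAT stood in 20 G2M and 8 S members, against 37.4% of windows and 41.1% of genes. The E2F letters stood in 4 S members, Mcm3, Mcm5, Mcm6 and Mcm7, and in 0 of the G2M members, against 1.56% of windows. A match describes letters in a window and no binding was measured.

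The windows of 5 G2M and 2 S members are printed 5′ to 3′ with the searched letters in capitals, to set the kinds side by side. Ube2c (chr2:164769679-164769978, + strand) and Ccnb2 (chr9:70421505-70421804, - strand) hold 6 and 3 CCAAT boxes and at least 1 cell-cycle homology region. In Ube2c the boxes at -184 and -181 overlap, since CCAATTGG holds a match on each strand. Plk1 (chr7:122159185-122159484, + strand) and Cdc20 (chr4:118437294-118437593, - strand) hold both elements, with 1 and 2 CCAAT boxes, and Birc5 (chr11:117848987-117849286, + strand) holds none of the searched letters. Mcm3 (chr1:20820263-20820562, - strand) and Mcm5 (chr8:75109259-75109558, + strand) hold CCAAT and E2F letters.
Ube2c: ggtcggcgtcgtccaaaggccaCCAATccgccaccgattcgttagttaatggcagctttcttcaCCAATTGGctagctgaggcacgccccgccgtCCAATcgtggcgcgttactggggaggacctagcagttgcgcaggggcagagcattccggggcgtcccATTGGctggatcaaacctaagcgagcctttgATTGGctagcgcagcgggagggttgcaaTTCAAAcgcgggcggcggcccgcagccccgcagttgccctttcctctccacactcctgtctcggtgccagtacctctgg
Ccnb2: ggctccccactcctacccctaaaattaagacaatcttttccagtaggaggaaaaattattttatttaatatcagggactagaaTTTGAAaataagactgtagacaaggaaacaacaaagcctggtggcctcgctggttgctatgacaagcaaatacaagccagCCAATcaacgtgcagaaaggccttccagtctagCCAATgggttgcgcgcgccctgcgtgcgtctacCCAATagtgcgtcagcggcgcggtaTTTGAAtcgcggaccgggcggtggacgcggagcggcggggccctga
Plk1: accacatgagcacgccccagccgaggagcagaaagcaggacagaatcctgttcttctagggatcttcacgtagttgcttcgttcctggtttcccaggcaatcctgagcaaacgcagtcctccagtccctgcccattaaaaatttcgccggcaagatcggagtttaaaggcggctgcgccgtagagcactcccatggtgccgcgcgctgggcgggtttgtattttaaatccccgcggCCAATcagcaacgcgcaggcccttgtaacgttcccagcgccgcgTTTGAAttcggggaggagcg
Cdc20: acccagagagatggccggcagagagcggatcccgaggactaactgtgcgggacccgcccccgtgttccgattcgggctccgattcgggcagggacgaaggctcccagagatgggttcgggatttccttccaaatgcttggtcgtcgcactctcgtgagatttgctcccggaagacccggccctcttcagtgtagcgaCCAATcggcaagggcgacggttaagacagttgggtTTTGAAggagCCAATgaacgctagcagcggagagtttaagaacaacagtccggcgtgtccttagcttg
Birc5: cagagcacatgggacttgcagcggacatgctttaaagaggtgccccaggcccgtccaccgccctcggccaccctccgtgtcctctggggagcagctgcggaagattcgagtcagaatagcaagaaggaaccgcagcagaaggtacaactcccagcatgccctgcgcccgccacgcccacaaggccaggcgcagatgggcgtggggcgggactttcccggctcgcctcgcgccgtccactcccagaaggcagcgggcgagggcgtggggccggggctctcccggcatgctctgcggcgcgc
Mcm3: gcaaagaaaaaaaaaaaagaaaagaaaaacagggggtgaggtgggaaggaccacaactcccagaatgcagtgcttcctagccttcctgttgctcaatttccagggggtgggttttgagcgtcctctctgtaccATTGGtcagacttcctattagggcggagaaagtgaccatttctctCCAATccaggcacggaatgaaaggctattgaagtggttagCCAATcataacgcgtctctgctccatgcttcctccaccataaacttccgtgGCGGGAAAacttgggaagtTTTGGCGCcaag
Mcm5: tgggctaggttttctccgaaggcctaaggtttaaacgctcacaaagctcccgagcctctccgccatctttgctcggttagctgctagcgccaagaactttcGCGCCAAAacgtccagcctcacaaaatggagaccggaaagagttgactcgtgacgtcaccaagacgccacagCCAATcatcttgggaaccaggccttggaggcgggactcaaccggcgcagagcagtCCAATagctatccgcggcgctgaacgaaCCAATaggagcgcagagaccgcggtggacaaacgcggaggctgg

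**Figure D1:**
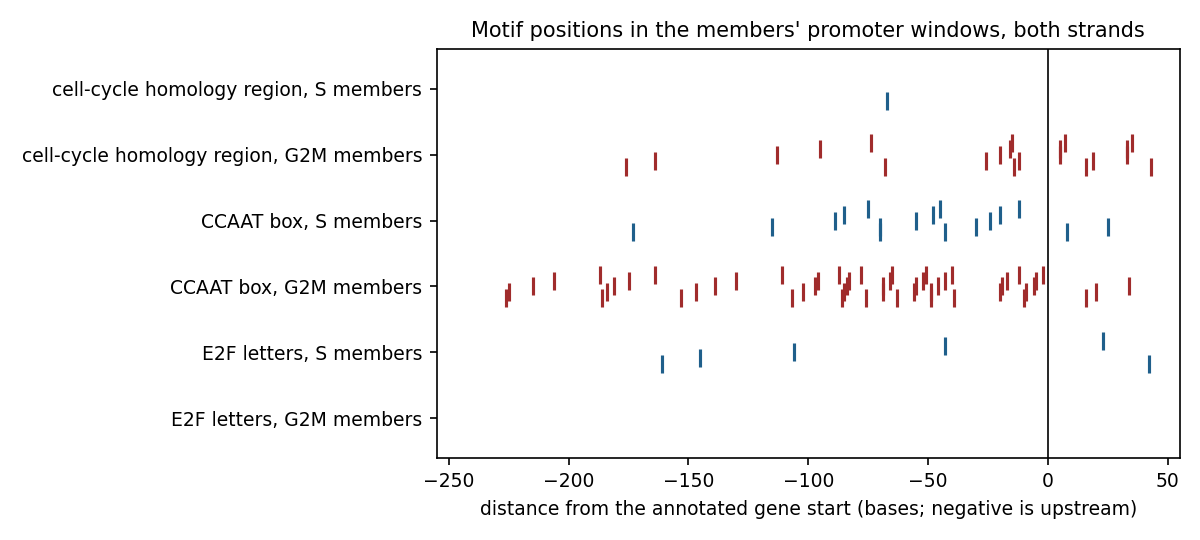
Positions of the 3 motifs in the promoter windows of the 33 matched members, as distance in bases from the annotated gene start (x axis), for S members in blue and G2M members in red; each tick is 1 match on either strand. The 16 G2M members with a cell-cycle homology region and the 4 S members with E2F letters fall on different rows.

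The filter on genes and mitochondrial reads kept 1042 to 1468 barcodes per library. Clusters marked by Cd3e, Cd3d, Trac, Cd8a and related genes, called T-like, held 715 cells in the Ctrl library, 1049 with aPD-L1, 888 with Oxali and 718 with both agents. T-like cells held 2674749 to 3676264 UMIs (molecule tags, 1 per transcript counted) per library. Cells under 1500 UMIs, 23 in Ctrl and 108 in aPD-L1, with 91 in Oxali and 48 in Combo, were left out of the shares of cells below. The Ctrl library stood apart. Of its T-like cells, 403 fell in a cluster led by the stress genes Hspa1a, Dnajb1 and Hspa1b, with Fos, which held 35 to 72 cells in the other libraries, so a cluster that was mostly 1 library cannot be told apart from that library. Shares and list medians against Ctrl are given with and without it. Libraries shared at most 1 cell barcode in pairs. Values in brackets are exact 95% intervals for counting error alone.

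The share of T-like cells in cycle was lowest in Oxali and highest in Combo. A cell was called in cycle when, after thinning to 1500 UMIs, it held at least 3 UMIs over at least 2 genes of the S list or of the G2M list. The share was 7.37% [5.54, 9.58] in Ctrl (51 of 692 cells) and 7.01% [5.47, 8.84] in aPD-L1 (66 of 941), with 3.89% [2.66, 5.48] in Oxali (31 of 797) and 11.5% [9.18, 14.2] in Combo (77 of 670). The Combo share was 2.95 [1.92, 4.64] times that of Oxali, 1.64 [1.16, 2.31] times that of aPD-L1 and 1.56 [1.08, 2.27] times that of Ctrl, with the counting interval of the ratio in brackets. The Oxali share was 0.528 [0.326, 0.841] times that of Ctrl, and the aPD-L1 share was 0.952 [0.650, 1.40] times that of Ctrl, an interval that holds 1. Over 12 alternative settings, the intervals of the shares themselves stood apart in 12 for Combo and Oxali and in 8 for Oxali and Ctrl. They stood apart in 6 for Combo and aPD-L1, and in 0 for Combo and Ctrl and for aPD-L1 and Ctrl. In the main setting the share intervals of Combo and Ctrl overlapped too, though the interval of their ratio excludes 1. Without thinning, where a deeper cell is called more easily, the shares were 16.2%, 14.5%, 10.0% and 19.4% in the same order. In all, 62 of the 225 cells in cycle sat exactly at the minimum and 197 cells lay 1 UMI under it, so the call marks a range and not a cell type.

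The order of Ctrl and Combo depended on the stress-led cluster. Without that cluster the share in cycle was 12.2% [8.70, 16.5] in Ctrl (36 of 295 cells) and 12.1% [9.66, 14.9] in Combo (77 of 637), a ratio of 0.991 [0.659, 1.52]. It was 7.46% [5.81, 9.41] in aPD-L1 and 4.14% [2.83, 5.83] in Oxali, and Oxali stayed below Ctrl and below Combo with separate intervals. In Ctrl the stress-led cluster held 15 of the 51 cells in cycle, 3.78% [2.13, 6.16] of its 397 cells. What part that cluster plays in the Ctrl values was not tested.

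**Figure D2:**
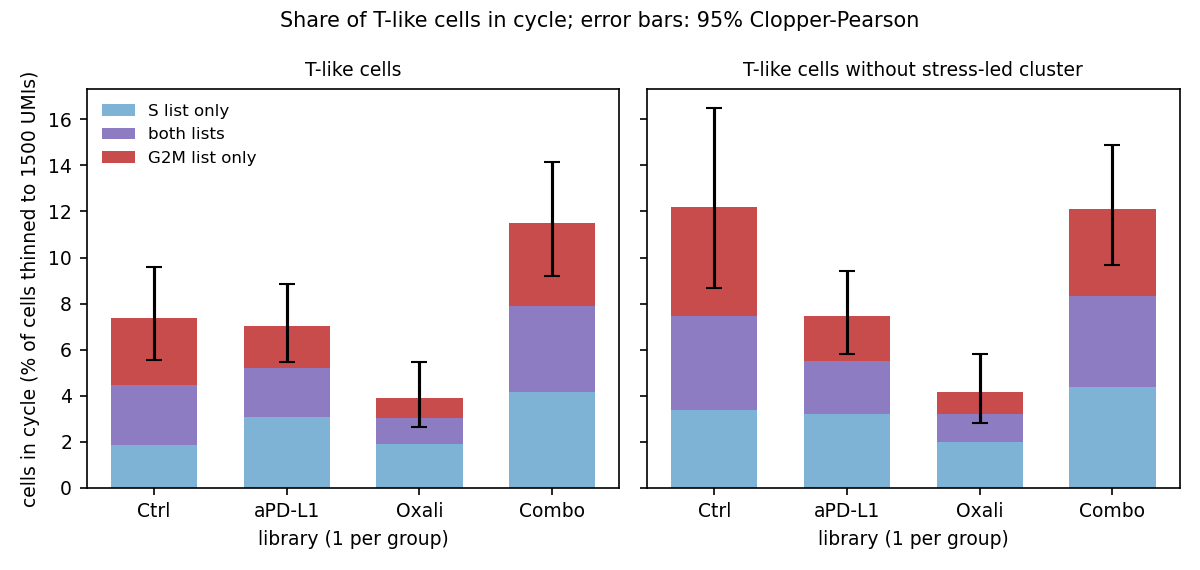
Share of T-like cells in cycle (y axis, percent of cells thinned to 1500 UMIs) in each library, stacked by whether the S list, both lists or the G2M list called the cell; error bars are 95% Clopper-Pearson intervals of the total. Oxali is lowest in both panels, and Ctrl reaches the level of Combo (12.2% against 12.1%) once the stress-led cluster is left out.

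Cells called by the G2M list and by the S list were both least frequent in Oxali and most frequent in Combo over all T-like cells. Cells called by the G2M list were 5.49% [3.91, 7.46] of T-like cells in Ctrl and 3.93% [2.78, 5.38] in aPD-L1, with 2.01% [1.15, 3.24] in Oxali and 7.31% [5.46, 9.55] in Combo. Cells called by the S list were 4.48% [3.06, 6.30], 5.21% [3.88, 6.83], 3.01% [1.94, 4.45] and 7.91% [5.98, 10.2] in the same order. Relative to Ctrl, the Oxali share was 2.74-fold [1.49, 5.25] lower for G2M and 1.49-fold [0.845, 2.65] lower for S, where the second interval holds 1. Without the stress-led cluster these were 4.12-fold [2.13, 8.22] and 2.32-fold [1.24, 4.33] lower, from G2M shares of 8.81% [5.84, 12.6] in Ctrl against 2.14% [1.23, 3.45] in Oxali and S shares of 7.46% [4.73, 11.1] against 3.21% [2.07, 4.74]. The G2M share in aPD-L1 was then 4.25% [3.01, 5.81], 2.07-fold [1.21, 3.52] lower than in Ctrl, and that in Combo 7.69% [5.74, 10.0], 0.873 [0.532, 1.46] times Ctrl. The S shares were 5.51% [4.09, 7.24] in aPD-L1 and 8.32% [6.29, 10.7] in Combo. Among cells in cycle, the G2M list called 74.5% [60.4, 85.7] in Ctrl and 56.1% [43.3, 68.3] in aPD-L1, with 51.6% [33.1, 69.8] in Oxali and 63.6% [51.9, 74.3] in Combo. These intervals overlapped, on 31 to 77 cells in cycle per library, and the difference between them was not tested.

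Cells in cycle were concentrated in 1 cluster of T-like cells. The cells were clustered without 576 cell-cycle genes, so that the members did not define the clusters. Cell-cycle genes outside the 576, such as Cdc7, stayed available to the clustering. In the cluster led by Ccl1, Nrn1, Utf1 and Zbtb32, which also carried the checkpoint receptor gene Havcr2, 39.5% [33.9, 45.2] of 304 cells were in cycle. The share there was 45.5% [30.4, 61.2] in Ctrl and 42.7% [31.3, 54.6] in aPD-L1, with 35.6% [21.9, 51.2] in Oxali and 37.1% [29.1, 45.7] in Combo, and the 4 intervals overlapped. In the cluster led by Dapl1 and Igfbp4, which carries the naive genes Lef1 and Ccr7, 0 of 739 cells were in cycle, which allows a share of up to 0.406% (3 counts of the total). With cells thinned to 2500 UMIs instead of 1500, the 2 clusters stood at 50.2% and 1.90%. The naive cluster gives the background of the call, at a median of 2475 UMIs against 6066 in the Ccl1-led cluster before thinning. Between them stood the clusters led by Gzmk at 7.86% [5.75, 10.4], by the interferon genes Ifit3b and Cxcl10 at 5.06% [3.30, 7.38], by Gzmm and Id3 at 4.497% [2.80, 6.79] and by the stress genes at 2.91% [1.67, 4.69]. In the Gzmk-led cluster 186 of 733 cells lay under 1500 UMIs and were left out, against 18 of 757 in the naive cluster.

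The Ccl1-led cluster held a larger part of the Combo library than of the others. It made up 6.36% [4.66, 8.44] of T-like cells in Ctrl and 7.97% [6.32, 9.89] in aPD-L1, with 5.65% [4.15, 7.48] in Oxali and 20.9% [17.9, 24.2] in Combo. Of the cells in cycle, 39.2%, 48.5%, 51.6% and 67.5% lay in it, in the same order. Among the remaining T-like cells the share in cycle was 4.78% [3.27, 6.72] in Ctrl and 4.72% [3.08, 6.88] in Combo. It was 3.93% [2.73, 5.44] in aPD-L1 and 1.99% [1.12, 3.27] in Oxali. Outside the Ccl1-led cluster Combo thus stood level with Ctrl, where the Ctrl value includes the stress-led cluster with 3.78% in cycle. Oxali was lowest, and its interval overlapped those of Combo and aPD-L1. It ended just under that of Ctrl (3.269 against 3.273). When each cluster was given its pooled share in cycle, so that only the mix of clusters differed, the 4 libraries came to 5.71%, 6.61%, 5.18% and 12.2%. With the pooled mix of clusters and each library's own shares, they came to 9.32%, 7.53%, 5.47% and 6.58%, and Combo was no longer highest. Both sets of values include the stress-led cluster and carry no interval. They treat the mix of clusters and the share in cycle as separate, which was not tested. When the stress-led cluster was left out, the Ccl1-led cluster was 14.9% [11.1, 19.5] of T-like cells in Ctrl and 22.0% [18.8, 25.4] in Combo, and these intervals overlapped.

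**Figure D3:**
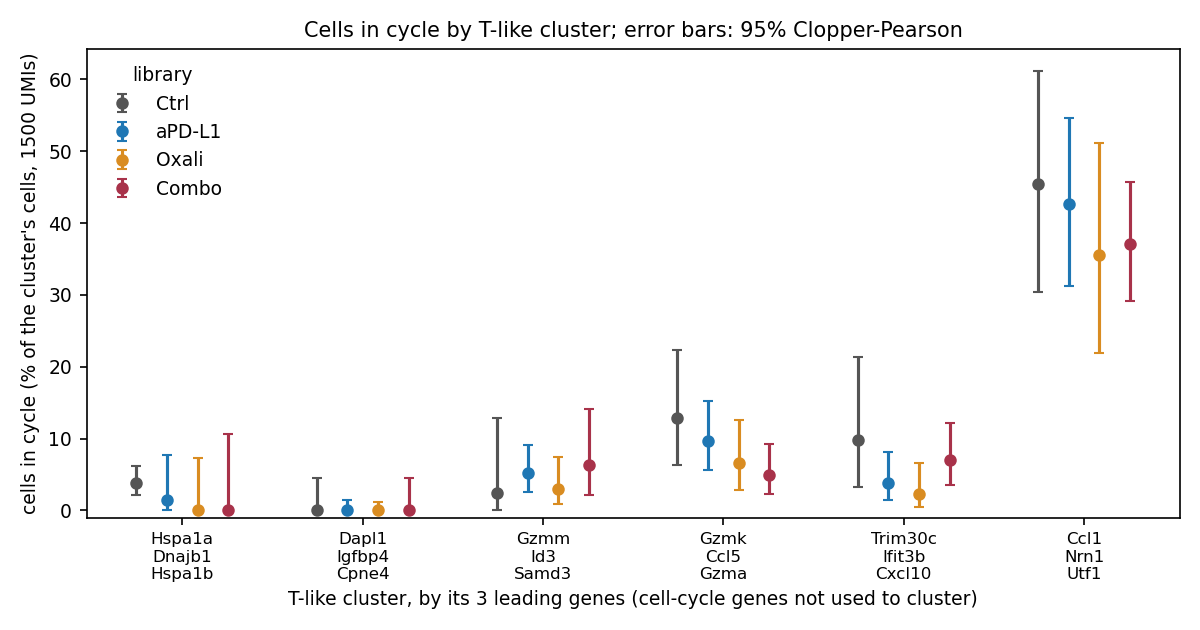
Share of cells in cycle (y axis, percent of the cluster's cells thinned to 1500 UMIs) in each T-like cluster, named by its 3 leading genes, with 1 point per library and 95% Clopper-Pearson intervals. The Ccl1-led cluster lies between 35.6% and 45.5% in every library, and the naive cluster led by Dapl1 lies at 0.

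Summed over T-like cells, the members were lower in Oxali and higher in Combo, and G2M members differed more than S members. Levels are CPM, a gene's UMIs per 1000000 UMIs of the library's T-like cells, and in such sums a smaller number of dividing cells and less RNA of the gene per dividing cell cannot be told apart. All 40 members had at least 20 UMIs and were compared, beside the 10205 genes that had as many. A member counted as higher or lower when its CPM differed at least 1.5-fold. The comparisons with Ctrl share that library.

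In Combo over Ctrl, 27 members were higher and 0 lower, where 12.3% of all genes were higher and 9.57% lower. Of the higher ones, 23 were among the 26 G2M members and 3 among the 13 S members (Rrm2, Tyms and Tk1), besides Stmn1. The median log2 ratio was 0.37 for S and 0.94 for G2M members, against 0.11 for all genes. Without the stress-led cluster this difference was not seen. The medians were then -0.12 and 0.07, with 1 member higher and 3 lower, against 14.2% and 10.1% of all genes. The lower ones were Kif23, Cks2 and Cdc20.

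In Oxali over Ctrl, 20 members were lower and 0 higher, against 10.8% and 7.5% of all genes. The median log2 ratio was -0.31 for S and -0.75 for G2M members, and 18 of 26 G2M but 2 of 13 S members were lower. Without the stress-led cluster the distance grew, with medians of -0.88 and -1.55, and 38 members were lower, against 14.4% of all genes. In aPD-L1 over Ctrl, 6 members were lower and 0 higher, against 9.9% and 7.12% of all genes, and the medians had opposite signs, 0.16 for S and -0.22 for G2M. With that cluster left out both were below 0, at -0.42 and -1.10, with 26 members lower, against 12.7% of all genes.

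The comparisons that do not use Ctrl hardly moved when the cluster was left out. In Combo over aPD-L1, 27 members were higher and 0 lower, against 11.2% and 5.9% of all genes, with medians of 0.30 for S and 1.05 for G2M members. In Combo over Oxali, 35 were higher and 0 lower, against 13.7% and 7.29%, with medians of 0.78 and 1.59. Leaving it out, the counts of higher members were 27 and 34. In both comparisons 24 of 26 G2M members were higher, with Kif23 and Kif20a as the exceptions.

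**Figure D4:**
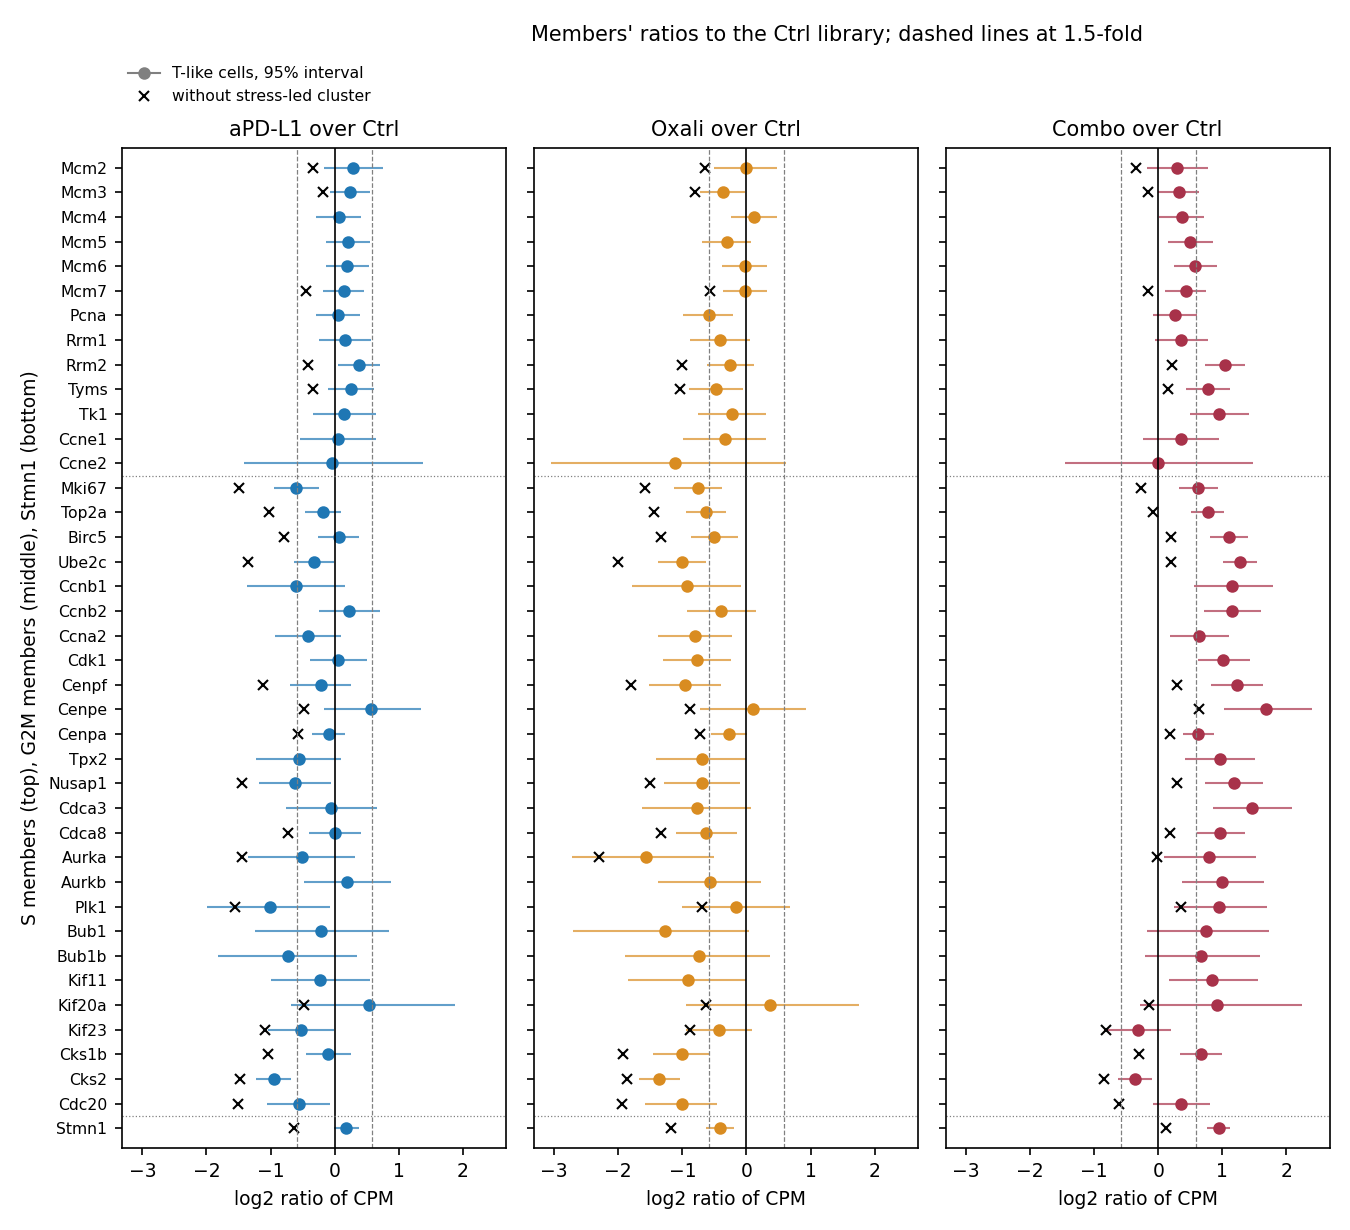
Log2 ratio of CPM (x axis) of each of the 40 members (y axis) over Ctrl in T-like cells, with 95% intervals; crosses, drawn for the members with values given in each library, are ratios without the stress-led cluster, and dashed lines mark 1.5-fold. Every cross lies left of its point, and in Combo over Ctrl the crosses lie on both sides of 0.

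The replication licensing and fork genes had the median nearest 0 of the 8 role groups in every comparison but aPD-L1 over Ctrl. There their median log2 ratio was 0.20, against -0.07 for the cyclin and Cdk1 group and -0.10 for the kinetochore and centromere group. Mcm7 (chr5:138164583-138172422 on mm10), a subunit of the helicase ring that opens DNA at origins, stood at 50.8 [42.7, 60.1] in Ctrl and 56.0 [48.6, 64.2] in aPD-L1, with 50.1 [42.7, 58.5] in Oxali and 68.5 [59.4, 78.5] in Combo, in CPM. Mcm3 (chr1:20802968-20820312), another subunit of the ring, stood at 53.1 [44.7, 62.6] in Ctrl and 62.6 [54.7, 71.2] in aPD-L1, with 41.2 [34.5, 48.8] in Oxali and 66.1 [57.2, 76.0] in Combo. None of the 7 genes of this group reached 1.5-fold in Combo over Ctrl or over aPD-L1, and 4 did in Combo over Oxali (Mcm3, Mcm5, Mcm6 and Pcna). There Mcm3 was 1.61-fold [1.28, 2.02] higher, and Mcm7, under the threshold, 1.37-fold [1.11, 1.69]. The group's median log2 ratio in Combo over Oxali was 0.61, the smallest of the 8 role groups, and its members ranged from 0.25 for Mcm4 to 0.85. Mcm2, a further subunit of the ring, was the least different member in Combo over aPD-L1. Its levels were 24.7 [19.1, 31.4] in Ctrl and 30.2 [24.8, 36.4] in aPD-L1, with 24.4 [19.4, 30.5] in Oxali and 30.2 [24.3, 37.1] in Combo, which all overlapped. Pcna, the sliding clamp, was the 1 gene of the group past 1.5-fold in Oxali over Ctrl, 1.51-fold [1.15, 1.98] lower. Without the stress-led cluster, 5 of the 7 were at least 1.5-fold lower there: Mcm2 (1.56-fold), Mcm3 (1.75-fold), Mcm5 (1.88-fold), Mcm6 (1.58-fold) and Pcna (2.04-fold).

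Among the genes of nucleotide supply, Rrm2 stood out. Rrm2 (chr12:24708241-24714146), the subunit of ribonucleotide reductase made in S phase, stood at 46.7 [38.9, 55.7] in Ctrl and 60.7 [53.0, 69.2] in aPD-L1, with 39.3 [32.8, 46.8] in Oxali and 96.0 [85.2, 108] in Combo, in CPM. Combo was 2.05-fold [1.66, 2.55] over Ctrl, 1.58-fold [1.32, 1.89] over aPD-L1 and 2.44-fold [1.97, 3.03] over Oxali, and 1.15-fold over Ctrl without the stress-led cluster. Tyms (chr5:30058202-30073617), thymidylate synthase, stood at 40.004 [32.8, 48.3] in Ctrl and 47.6 [40.8, 55.2] in aPD-L1, with 28.8 [23.2, 35.3] in Oxali and 68.5 [59.4, 78.5] in Combo. Its Combo level was 2.38-fold [1.85, 3.07] over Oxali. Rrm1, the large subunit of the reductase, had a smaller distance, 1.71-fold [1.27, 2.31], and Tk1, thymidine kinase, 2.25-fold [1.66, 3.096].

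The cyclins, Cdk1 and its subunits were split. Cdk1, the kinase that starts mitosis, was 3.46-fold [2.53, 4.80] in Combo over Oxali. Its partner cyclin genes Ccnb1, Ccnb2 and Ccna2 were 4.23-fold [2.60, 7.20], 2.92-fold [2.14, 4.01] and 2.72-fold [1.91, 3.94]. In Oxali a single cell per gene held 47.6% of the 21 Ccnb1 UMIs, 27.6% of the Ccnb2 and 22.2% of the Ccna2 UMIs. The UMIs of 1 cell are not independent, which these brackets do not count. Cks1b (chr3:89415472-89418383), which encodes a small subunit of Cdk complexes, stood at 44.9 [37.2, 53.6] in Ctrl and 41.9 [35.5, 49.1] in aPD-L1, with 22.3 [17.4, 28.1] in Oxali and 71.1 [61.9, 81.4] in Combo, in CPM. Cks2 (chr13:51645232-51650660), its close relative, was highest in Ctrl, at 98.3 [86.8, 111] in Ctrl and 50.9 [43.8, 58.7] in aPD-L1, with 38.4 [31.9, 45.8] in Oxali and 76.5 [66.9, 87.1] in Combo. Cks2 was the lowest member of all in Combo over Ctrl, 1.29-fold [1.07, 1.54] lower, and it was 1.93-fold [1.596, 2.34] lower in aPD-L1 and 2.56-fold [2.06, 3.20] in Oxali. The Combo level of Cks2, with the stress-led cluster left out, was 0.556 times that of Ctrl. Ccne1 and Ccne2, the cyclin E genes of S-phase entry, were low, and Ccne2 with 36 UMIs in all was the rarest member, where the 40 members ranged up to 2047 UMIs for Stmn1. In Combo over Oxali the range within the group was 0.69 to 2.08 on the log2 scale.

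The partners of the anaphase-promoting complex, the ubiquitin ligase that ends mitosis, had the largest median distance of the 8 role groups between Combo and Oxali, a log2 ratio of 2.23. Ube2c (chr2:164769898-164778822), its ubiquitin-conjugating enzyme, stood at 60.2 [51.3, 70.2] in Ctrl and 48.1 [41.3, 55.8] in aPD-L1, with 30.0 [24.3, 36.6] in Oxali and 145 [132, 159.7] in Combo, in CPM. Combo was 2.41-fold [2.01, 2.91] over Ctrl, 3.02-fold [2.53, 3.62] over aPD-L1 and 4.84-fold [3.88, 6.10] over Oxali, and 1.15-fold over Ctrl without the stress-led cluster. In Oxali 1 cell held 33.0% of the Ube2c UMIs, against 26.6% in aPD-L1, 20.5% in Ctrl and 10.9% in Combo. Cdc20 (chr4:118432901-118437352), the activator that directs the complex to its substrates, stood at 28.0 [22.1, 35.1] in Ctrl and 19.0 [14.8, 24.1] in aPD-L1, with 13.9 [10.2, 18.6] in Oxali and 35.9 [29.4, 43.4] in Combo. Cdc20 was 2.01-fold [1.37, 2.98] lower in Oxali than in Ctrl, and in Combo over Ctrl it did not reach 1.5-fold (1.28-fold [0.944, 1.74]). Cdca3, which triggers the destruction of Wee1, was 4.68-fold [2.92, 7.82] in Combo over Oxali.

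All 7 genes of the chromosomal passenger complex and the mitotic kinases (Birc5, Cdca8, Aurkb, Aurka, Plk1, Bub1 and Bub1b) were at least 1.5-fold higher in Combo over Ctrl, over aPD-L1 and over Oxali, where 12.3%, 11.2% and 13.7% of all genes were. Over Ctrl the call was lost without the stress-led cluster, where 0 of the 7 passed and the ratios ran from 0.986 to 1.28. Birc5 (chr11:117849251-117855743), survivin, which docks the passenger complex on centromeres, stood at 51.6 [43.3, 61.0] in Ctrl and 53.9 [46.6, 61.9] in aPD-L1, with 36.5 [30.2, 43.7] in Oxali and 111 [99.1, 123] in Combo, in CPM. Cdca8 (chr4:124918465-124939311), borealin of the same complex, stood at 32.9 [26.4, 40.5] in Ctrl and 32.9 [27.3, 39.3] in aPD-L1, with 21.4 [16.6, 27.0] in Oxali and 64.4 [55.6, 74.2] in Combo. Combo over Oxali was 3.03-fold [2.45, 3.77] for Birc5 and 3.02-fold [2.28, 4.03] for Cdca8, and Aurkb, its kinase, was 2.96-fold [1.87, 4.84]. Aurka (chr2:172356190-172370535), the kinase of the spindle poles, was the lowest member in Oxali over Ctrl and the highest in Combo over Oxali. It stood at 10.1 [6.65, 14.7] in Ctrl and 7.07 [4.62, 10.4] in aPD-L1, with 3.40 [1.70, 6.09] in Oxali and 17.5 [13.03, 22.9] in Combo, 2.97-fold [1.42, 6.62] lower in Oxali than in Ctrl and 5.13-fold [2.64, 10.9] in Combo over Oxali, and rested on 11 UMIs in Oxali. The spindle checkpoint kinase genes Bub1 and Bub1b were 4.07-fold [1.82, 10.3] and 2.67-fold [1.36, 5.54] in Combo over Oxali. Plk1 (chr7:122159439-122169873), which drives mitotic entry, was the lowest member in aPD-L1 over Ctrl and the highest in Combo over aPD-L1. It stood at 9.35 [6.05, 13.8] in Ctrl and 4.62 [2.69, 7.40] in aPD-L1, with 8.36 [5.51, 12.2] in Oxali and 18.1 [13.6, 23.6] in Combo, and in Oxali 1 cell held 55.6% of its UMIs. Plk1 was 2.02-fold [1.05, 3.99] lower in aPD-L1 relative to Ctrl and 3.92-fold [2.24, 7.21] in Combo over aPD-L1.

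Among the kinetochore and centromere genes, Cenpf and Cenpe differed more than Cenpa between Combo and Oxali. Cenpa (chr5:30666777-30674830), the histone variant that marks the centromere, stood at 82.3 [71.7, 93.9] in Ctrl and 76.98 [68.3, 86.5] in aPD-L1, with 68.1 [59.4, 77.7] in Oxali and 127 [114, 140.3] in Combo, in CPM. Cenpf (chr1:189640606-189688086), a large kinetochore protein of G2 and mitosis, stood at 26.9 [21.1, 33.9] in Ctrl and 23.1 [18.5, 28.6] in aPD-L1, with 13.9 [10.2, 18.6] in Oxali and 63.1 [54.4, 72.8] in Combo. Combo over Oxali was 3.01-fold [1.97, 4.69] for Cenpe, 4.53-fold [3.26, 6.42] for Cenpf and 1.86-fold [1.57, 2.21] for Cenpa. Cenpe (chr3:135212537-135273611), the kinetochore motor, was the highest member both in aPD-L1 over Ctrl, 1.49-fold [0.894, 2.53], and in Combo over Ctrl, 3.22-fold [2.03, 5.29]. Its levels were 8.97 [5.75, 13.4] in Ctrl and 13.3 [9.86, 17.6] in aPD-L1, with 9.59 [6.52, 13.6] in Oxali and 28.9 [23.1, 35.6] in Combo, and it was the 1 member still past 1.5-fold in Combo over Ctrl without the stress-led cluster (1.55-fold). Against Ctrl without that cluster Cenpe was 1.40-fold lower in aPD-L1 and 1.84-fold lower in Oxali, the opposite direction to the values with it.

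Of the spindle and motor genes, Stmn1 was the most abundant member. Stmn1 (chr4:134468320-134473843), which binds free tubulin and was used in neither list, stood at 136 [123, 151] in Ctrl and 155 [142, 168] in aPD-L1, with 103 [92.0, 114] in Oxali and 262 [244, 281] in Combo, in CPM. Combo was 1.92-fold [1.70, 2.18] over Ctrl, 1.70-fold [1.52, 1.90] over aPD-L1 and 2.55-fold [2.24, 2.91] over Oxali, and 1.09-fold over Ctrl without the stress-led cluster. Nusap1 (chr2:119618298-119651244), which bundles spindle microtubules, stood at 22.1 [16.8, 28.5] in Ctrl and 14.4 [10.8, 18.9] in aPD-L1, with 13.6 [9.89, 18.3] in Oxali and 50.003 [42.3, 58.7] in Combo. In Combo over Oxali Nusap1 was 3.67-fold [2.61, 5.26], Tpx2, which starts microtubules around chromosomes, 3.15-fold [2.09, 4.87] and the spindle motor gene Kif11 3.37-fold [1.95, 6.10]. Kif23 (chr9:61915905-61946774), the motor of the central spindle that cytokinesis needs, did not share this order. It stood at 25.8 [20.1, 32.6] in Ctrl and 18.0 [13.9, 22.8] in aPD-L1, with 19.2 [14.7, 24.6] in Oxali and 20.8 [16.0, 26.7] in Combo, was the least different member in Combo over Oxali at 1.08-fold [0.750, 1.57], and the intervals of all 4 libraries overlapped. Without the stress-led cluster Kif23 was highest in Ctrl, at 35.1 CPM. It was then 2.12-fold lower in aPD-L1, 1.84-fold in Oxali and 1.76-fold in Combo. Kif20a, a related motor, was the highest member in Oxali over Ctrl, 1.29-fold [0.519, 3.37], an interval that holds 1, but it was 1.55-fold lower without the stress-led cluster. It stood at 3.36 [1.54, 6.39] in Ctrl and 4.90 [2.90, 7.74] in aPD-L1, with 4.33 [2.37, 7.27] in Oxali and 6.38 [3.84, 9.96] in Combo, on 9 to 19 UMIs per library.

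Both genes of chromosome structure were highest in Combo and lowest in Oxali. Top2a (chr11:98992943-99024189), the topoisomerase that untangles sister chromatids, stood at 74.4 [64.4, 85.5] in Ctrl and 65.6 [57.5, 74.4] in aPD-L1, with 48.0 [40.7, 56.1] in Oxali and 127 [114, 140.3] in Combo, in CPM. Mki67 (chr7:135689784-135716361), whose protein coats mitotic chromosomes and is the usual marker of dividing cells, stood at 53.8 [45.4, 63.4] in Ctrl and 35.6 [29.8, 42.3] in aPD-L1, with 31.9 [26.0, 38.7] in Oxali and 82.9 [72.9, 93.9] in Combo. Combo over Oxali was 2.64-fold [2.19, 3.21] for Top2a and 2.60-fold [2.06, 3.31] for Mki67. Combo over Ctrl was 1.71-fold [1.43, 2.03] and 1.54-fold [1.25, 1.90], and both were below 1 without the stress-led cluster, at 0.947 and 0.829.

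Further genes of replication and mitosis were read the same way. Of 30 further replication genes, such as Fen1, Uhrf1 and Cdc45, the numbers at least 1.5-fold higher and lower were 5 and 2 in aPD-L1 over Ctrl, 1 and 5 in Oxali over Ctrl, 10 and 0 in Combo over Ctrl, 5 and 0 in Combo over aPD-L1, 18 and 0 in Combo over Oxali. Of 28 further mitotic genes that were read, such as Hmmr, Prc1 and Smc4, they were 2 and 5 in aPD-L1 over Ctrl, 0 and 12 in Oxali over Ctrl, 13 and 0 in Combo over Ctrl, 16 and 0 in Combo over aPD-L1, 21 and 0 in Combo over Oxali. In Combo over Oxali the medians of the log2 ratio were 0.65 and 1.12, against 0.78 and 1.59 for the S and G2M members and 0.12 for all genes. The shares of all genes past 1.5-fold higher and lower were 7.12% and 9.9%, 7.5% and 10.8%, 12.3% and 9.57%, 11.2% and 5.9%, 13.7% and 7.29% in the same order of comparisons, so 1 of 30 higher in Oxali over Ctrl, for example, is no more than among all genes.

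The members differed in how far their UMIs were confined to cells in cycle, read with each gene left out of its own call. Of the thinned UMIs of Ccna2, the A-type cyclin, 98.2% lay in cells called by the other members, followed by Ccnb2 at 93.8%, Kif11, the motor that separates the spindle poles, at 91.3%, Birc5 at 91.1%, Plk1 at 90.9% and Ube2c at 90.1%. The lowest were Ccne1 at 20.9%, Mcm4 at 21.4%, Pcna at 22.6%, Kif23 at 22.9% and Rrm1 at 24.8%. In the order of all 40 members, the Mcm genes, Pcna, Rrm1 and Ccne1 shared the low end with 3 G2M members, Kif23, Cenpa (27.6%) and Cks2 (34.5%), and Rrm2 (81.8%) and Tk1 (74.0%) lay with the G2M members. These 3 G2M members were seen in resting cells as well. In the naive cluster, where Ccna2 was at 0 UMIs and Ube2c at 0.939 [0.114, 3.39], Cenpa stood at 55.4 [45.9, 66.3], Kif23 at 25.8 [19.5, 33.6] and Cks2 at 16.4 [11.4, 22.9] CPM. Against these values the Ccl1-led cluster held 96.2 CPM of Ccna2, 292 of Ube2c, 229 of Cenpa, 36.7 of Kif23 and 166 of Cks2.

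**Figure D5:**
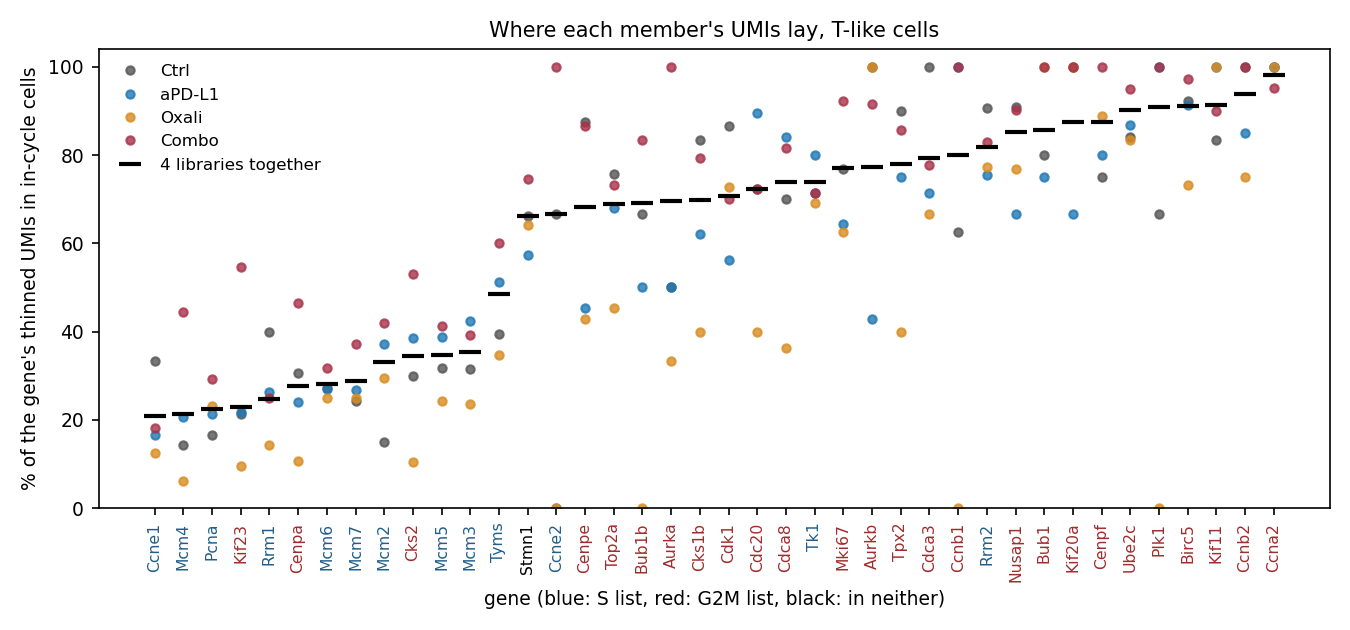
Percent of each member's thinned UMIs in T-like cells that lay in cells in cycle (y axis), called without that gene, with 1 point per library and a bar for the 4 libraries together; gene names are blue for the S list, red for the G2M list and black for Stmn1. The order runs from Ccne1 and Mcm4 near 21% to Ccna2 at 98.2%, and points at 0 or 100 rest on few UMIs.

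The level per cell was read by 1 list in cells that the other list had called. S-positive cells held 4.48 [3.77, 5.29] G2M UMIs per cell in Ctrl and 3.61 [3.0997, 4.19] in aPD-L1, with 2.71 [2.09, 3.45] in Oxali and 5.36 [4.75, 6.02] in Combo. The Oxali value lay below those of Ctrl and Combo with separate intervals, but the UMIs of 1 cell are not independent, and the medians over cells were 4, 2, 1 and 2 in the same order. G2M-positive cells held 2.55 [2.07, 3.11], 3.24 [2.69, 3.88], 2.94 [2.16, 3.91] and 2.96 [2.497, 3.48] S UMIs per cell, and these intervals overlapped. With fewer than 3 macrophage UMIs per barcode the Combo value was 4.61 G2M UMIs per S-positive cell. T-like cells outside the S call held 0.446 [0.422, 0.471] G2M UMIs per cell over the 4 libraries, and those outside the G2M call 0.422 [0.399, 0.446] S UMIs.

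Stmn1, Rrm2 and Ube2c were read per cell in cycle, each in cells called without it. Stmn1 and Rrm2 were near one level in the 4 libraries, and Ube2c was highest in Combo. Stmn1 held 116, 100, 132 and 129.9 UMIs per 100 cells in cycle in Ctrl, aPD-L1, Oxali and Combo. Rrm2 held 58.0, 50.8, 58.6 and 59.5, where its summed level was 2.44-fold apart between Combo and Oxali. Ube2c held 41.2 [25.5, 62.9], 51.6, 48.4 [27.1, 79.8] and 100 [78.9, 125] UMIs per 100 cells in the same order. The Combo interval stood apart from that of Ctrl and overlapped that of Oxali. The Ube2c UMIs of Combo lay in 32.5% of its cells in cycle, against 17.6% in Ctrl.

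The same further genes were higher in the cells in cycle. The cells in cycle were set against the other T-like cells of the same library, with both thinned to 1500 UMIs, and the fold was taken over the 4 libraries together. Over 8708 genes, 22.6% were at least 1.5-fold higher and 24.3% lower. Of further replication genes, 25 of 27 were higher, and of further mitotic genes 19 of 20. The 10 genes outside the 40 members with the highest lowest-library fold, ranked with counts under 3 UMIs set to 3, were led by Pclaf, a Pcna-binding factor, at 83.6-fold [73.7, 94.4], and by the replication-dependent histone genes Hist1h2ae at 62.8-fold [51.3, 76.1] and Hist1h1b at 56.6-fold [47.6, 66.8]. Below them came the chromatin genes Hmgb2, also counted among the further mitotic genes, at 7.63-fold [7.10, 8.19], Hmgn2 at 5.99-fold [4.85, 7.33] and Lmnb1, lamin B1, at 8.94-fold [7.37, 10.7], the condensin gene Smc2 at 9.42-fold [7.61, 11.5], and the replication genes Dut, Lig1 and Rfc4 at 6.28-fold [5.43, 7.21], 7.34-fold [5.77, 9.20] and 6.10-fold [4.25, 8.48]. Cells in cycle also held more RNA, with a median of 6968 UMIs before thinning against 2888 in the others.

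With all cells thinned to 1500 UMIs, cells in cycle held fewer UMIs of naive genes and more of checkpoint and of some cytotoxic genes. Of the 225 cells in cycle, 120 lay in the Ccl1-led cluster. The folds here are of shares of a cell's UMIs. Before thinning, cells in cycle held a median of 6968 UMIs against 2888, so a lower share need not be less RNA per cell. All 7 naive and memory genes read were lower in cells in cycle in each of the 4 libraries, where 15% of all genes were. Il7r, the interleukin 7 receptor that keeps resting cells alive, was 4.80-fold [3.17, 7.67] lower, and Tcf7 and Lef1, transcription factors of naive and memory cells, were 4.22-fold [2.56, 7.55] and 4.43-fold [2.64, 8.11] lower. Of 6 checkpoint genes read, 6 were at least 1.5-fold higher over the 4 libraries together and 2 were higher in each of the 4 libraries, where 14% of all genes were. The latter were Entpd1, the ectonucleotidase CD39, at 3.34-fold [2.24, 4.80], and Pdcd1, the receptor of PD-L1, at 1.72-fold [1.38, 2.13]. Of 5 cytotoxic genes, 3 were at least 1.5-fold higher over the 4 libraries together, where, as for the checkpoint genes, 22.6% of all genes were. Gzmb, granzyme B, was 3.09-fold [2.84, 3.36] and Prf1, perforin, 2.05-fold [1.61, 2.58]. Gzma, granzyme A, was 2.37-fold [1.84, 3.00], though in Ctrl it stood at 3.92 UMIs per 100 cells in cycle, from 2 UMIs, against 9.05 per 100 other cells, and Gzmk and Nkg7 stood at 1.26-fold [0.706, 2.08] and 1.36-fold [1.27, 1.45]. Of 10 stress genes, 8 were at least 1.5-fold lower in cells in cycle, where 24.3% of all genes were, among them Fos at 3.66-fold [2.52, 5.56] and Hspa1a at 1.94-fold [1.65, 2.30].

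Macrophage-like and other barcodes also carried the members, most of them with T transcripts. Macrophage-like barcodes, led by Il1b and Cxcl2 in 1 cluster and holding the complement genes C1qb and C1qc among the leading genes of the other, were in cycle in 9.33% [5.62, 14.3] of cases in Ctrl and 9.27% [5.97, 13.6] in aPD-L1, with 3.54% [1.43, 7.15] in Oxali and 6.12% [2.84, 11.3] in Combo, with overlapping intervals. Of the 57 such barcodes in cycle, 91.2% also carried 3 or more T-marker UMIs, as did 95.6% of those not in cycle. The cells had been sorted on CD3 and CD8, and how macrophage-like barcodes came to be present was not tested. Among the 37 macrophage-like barcodes with fewer than 3 T UMIs, 5 were in cycle, 13.5% [4.54, 28.8], and 4 of these 5 were in Ctrl. Of these 5, 2 held 3 or more macrophage-marker UMIs and 3 reached that number for neither marker set, against 87.5% of the others with 3 or more macrophage-marker UMIs, so the class name is weak for them. Which cells the members there came from was not tested. In the other direction, T-like barcodes with fewer than 3 macrophage UMIs were in cycle in 7.31% [5.34, 9.72] of cases in Ctrl and 6.36% [4.78, 8.25] in aPD-L1, with 3.89% [2.58, 5.61] in Oxali and 11.7% [9.15, 14.6] in Combo, with Oxali lowest and Combo highest as before.

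The remaining classes were small. Epithelial tumor-like barcodes, with Krt7 and Cldn3, were in cycle most often, in 10 of 45 cases (22.2% [11.2, 37.1]), all 10 called by the G2M list and 1 of them with T transcripts at 3 UMIs or more. Their median was 1899 UMIs against 5437 in the other epithelial tumor-like barcodes. NK-like barcodes were in cycle in 15 of 175 (8.57% [4.88, 13.7]) and CD4 T-like ones, led by Foxp3, in 5 of 63 (7.94% [2.63, 17.6]). Dendritic-like barcodes, led by Klk1 and Siglech, were in cycle in 3 of 220 (1.36% [0.282, 3.93]). Per 1000000 UMIs over the 4 libraries, the G2M list summed to 798 in T-like, 492 in macrophage-like and 193 in dendritic-like barcodes, and the S list to 521, 344 and 198.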

How the data were processed

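Per the labels, TI-CD8+ cells were prepared with the 10x 3′ v3 chemistry. The authors deposited unnormalized UMI counts, a filtered gene by barcode matrix for each of 4 libraries, made with Cell Ranger 3.1.0 on mm10. The genes and lists used here were chosen with earlier results of these data known. Barcodes were kept from 500 genes up and with mitochondrial UMIs of 10% or less. Clustering used scanpy 1.11.5 (Python 3.11.15): 2000 variable genes without 576 cell-cycle genes, 30 components, 15 neighbors and Leiden resolution 1, with clusters named from marker genes. Of the 576, 195 were listed, and 381 correlated at 0.15 or more with a cell's mean of the S or of the G2M list. Scrublet marked 32 of 4948 barcodes at an assumed rate of 5%, and they were kept. Cells were thinned to 1500 UMIs with seed 1 before being called in cycle. Each member's level in cells in cycle used calls made without it. Shares carry exact Clopper-Pearson and sums exact Poisson 95% intervals, and ratios the exact conditional binomial interval (scipy 1.17.1), for counting error only. PCR duplicates are removed by the UMIs. No p-value was computed. Genes needed 20 T-like UMIs over the 4 libraries, and the thinned comparison 8708 genes. Folds of cells in cycle compare their UMIs with those expected at the level of the other cells of the same library. The scripts were tested on simulated data.

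The text gives values in each library for the 2 members with the most T-like UMIs in each role group and for the members with the highest and lowest ratio in each comparison, and outside the lists for the 10 genes with the largest smallest-of-4-libraries ratio among genes with at least 100 thinned UMIs. Alternatives varied the thinning, the number of UMIs called, the filters, the doublets, the mixed barcodes, the clustering, the stress-led cluster, the fold and the minimum of UMIs. Gene positions are from GENCODE M21 on GRCm38, and promoter windows and their starts from RefSeq on GRCm38.p6. The annotation used for counting is not given in the sources used here.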

Additional observations from a re-analysis of the deposited data

Results flagged for a closer look

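Oxali over Ctrl and Combo over aPD-L1 both read the addition of Oxali, without and with the antibody, and they pointed in opposite directions. The share of T-like cells in cycle in Oxali was 0.528 times that of Ctrl, while the share in Combo was 1.64 times that of aPD-L1. For cells called by the S list the ratios were 0.672 and 1.52, with overlapping intervals of the shares in both, and for cells called by the G2M list 0.366 and 1.86, with separate ones. At the pooled mix of T-like clusters the share in cycle was 6.58% in Combo and 7.53% in aPD-L1. It was 5.47% in Oxali and 9.32% in Ctrl. These shares carry no interval, so whether the direction with the antibody turned cannot be said. The median log2 ratio of the S members was -0.31 without and 0.30 with the antibody, and that of the G2M members was -0.75 and 1.05. Each arm is 1 library, so the difference between the effects was not tested.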

How the results depend on the processing

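With 1 library per group, no replicate could be left out. No paired analysis was possible because no group has a replicate. Of 242 values that answer a comparison, recomputed under the alternatives, 215 stayed within a set range and 27 did not. The range was 1.5 times the value for counts and the counting interval for shares and levels per cell. For medians it ran between the medians of the members' interval limits. For share ratios it ran between the far ends of both shares' intervals, which is wider than the interval printed with the ratio. Against the printed intervals, 0.991 (Combo over Ctrl) and 0.612 (aPD-L1 over Ctrl), without the stress-led cluster, lay outside. So did 1.90 (Combo over Oxali) with 2 UMIs per call. Of share ratios and medians, 5 crossed to the other side of no difference: the Combo over Ctrl share ratio (0.991) and the S medians of Combo and aPD-L1 over Ctrl, given next, without the stress-led cluster, the aPD-L1 over Ctrl share ratio with 2500 UMIs (1.11), and the aPD-L1 over Ctrl S median with fewer than 3 macrophage UMIs (-0.019). Without the stress-led cluster, the median log2 ratio over Ctrl was -0.42 (S) and -1.10 (G2M) in aPD-L1, -0.88 and -1.55 in Oxali, and -0.12 and 0.074 in Combo, and 26, 38 and 3 members were at least 1.5-fold lower and 1 higher (Combo). There, among members with values given in each library and past 1.5-fold with the cluster, Combo over Ctrl changed sign for Mki67 (-0.27), Top2a (-0.078), Aurka (-0.020), Kif20a (-0.15) and Cks1b (-0.31). Of all 40 members, 37 lay above Ctrl in Combo with the cluster and 20 without it. With UMIs summed over thinned cells, Nusap1 in Oxali over Ctrl was 0.037, and the counts were 2 higher in aPD-L1 over Ctrl, 1 higher in Oxali over Ctrl, 2 lower in Combo over Ctrl and 1 lower in Combo over Oxali. At a fold of 2, 1 member was lower in aPD-L1 over Ctrl and 7 in Oxali over Ctrl, and 10 were higher in Combo over Ctrl and 14 in Combo over aPD-L1. The shares of all genes past the fold were not computed for thinned sums or a fold of 2. These counts therefore have no background beside them.

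In macrophage-like barcodes with fewer than 3 T UMIs the share in cycle was 50% in Ctrl, 0% in Oxali and 0% in Combo, over 8 to 11 barcodes each. Settings chosen after seeing the data were those on clusters, on UMIs per cell and on S and G2M shares without the stress-led cluster. Those on clusters and on UMIs per cell gave 1.90% in the Dapl1-led, 11.7% in the Gzmm-led, 19.9% in the Gzmk-led, 8.59% in the Trim30c-led and 50.2% in the Ccl1-led cluster with cells thinned to 2500 UMIs, and 4.61 G2M UMIs per S-positive cell in Combo without barcodes that held 3 or more macrophage UMIs. The causes of these shifts were not tested. Over 12 settings the ratio of shares in cycle ranged from 1.90 to 3.94 in Combo over Oxali, from 1.18 to 2.13 in Combo over aPD-L1, from 0.991 to 1.66 in Combo over Ctrl, from 0.340 to 0.724 in Oxali over Ctrl and from 0.612 to 1.11 in aPD-L1 over Ctrl. The number of cells in cycle, 31 to 77 per library, limits the precision, and the lack of replicates leaves the spread between mice unknown.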

Other observations

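The genes that start and restrain the cycle were set beside the members. Among 16 genes of cycle entry and transcription, the numbers at least 1.5-fold higher and lower in T-like sums were 3 and 1 in aPD-L1 over Ctrl, 0 and 4 in Oxali over Ctrl, 5 and 1 in Combo over Ctrl, 4 and 1 in Combo over aPD-L1, 8 and 0 in Combo over Oxali. Among 10 brakes, the numbers were 0 and 3 in aPD-L1 over Ctrl, 0 and 4 in Oxali over Ctrl, 1 and 2 in Combo over Ctrl, 2 and 0 in Combo over aPD-L1, 3 and 0 in Combo over Oxali. Of all genes, 7.12% and 9.9%, 7.5% and 10.8%, 12.3% and 9.57%, 11.2% and 5.9%, 13.7% and 7.29% were past 1.5-fold higher and lower in the same order, and several counts lie near these shares. Cdk4, the kinase that D cyclins activate in G1, stood at 90.1 in Ctrl and 89.8 in aPD-L1, with 85.4 in Oxali and 102 in Combo, in CPM. Btg1, an antiproliferative gene of resting lymphocytes, stood at 1198 in Ctrl and 938 in aPD-L1, with 974 in Oxali and 905 in Combo, in CPM.

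In cells in cycle against the other T-like cells of the same library, 8 of 11 entry genes read were at least 1.5-fold higher and 1 lower. These folds too compare cells thinned to 1500 UMIs, as shares of a cell's UMIs. E2f1, a transcription factor of S genes, was 20.3-fold [11.1, 34.1], on 14 UMIs in cells in cycle, and Cdk4 2.34-fold [1.78, 3.01], while Ccnd2, a D cyclin, was 1.98-fold [1.52, 2.65] lower. Of 9 brakes read, 2 were higher, near the 22.6% of all genes that were, and 4 lower, where 24.3% of all genes were. The lower ones were Btg1 at 2.504-fold [2.14, 2.95], Btg2 at 1.76-fold [1.47, 2.13], Tob1 at 2.29-fold [1.11, 5.69] and Cdkn1b, the inhibitor p27, at 1.97-fold [1.32, 3.08]. The higher ones were Cdkn2c, the Cdk4 and Cdk6 inhibitor p18, at 5.36-fold [2.93, 8.99] and Cdkn1a, the inhibitor p21, at 2.16-fold [1.15, 3.69]. The E2f1 and Cdkn2c folds rest on few UMIs and the brackets cover counting error only.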
